A study of Homo sapiens with 9 samples.

Results

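Fat inside a cell is stored as lipid droplets, which carry a coat of perilipins and a small set of enzymes and regulators that fill the droplets or empty them. The genes described here are the 5 perilipins PLIN1 to PLIN5, the droplet fusion genes CIDEB and CIDEC, the triglyceride lipase PNPLA2 and its inhibitors G0S2 and HILPDA. They were taken by symbol, and all 10 were measured, through 18 of the 41091 probe sets that carry 1 gene symbol. Where a gene had several probe sets, the one with the highest mean over the arrays stood for it, so that these are 10 of 19775 genes.

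The cells were HepG2, an established human hepatoma line, grown in medium without phenol red that held fetal bovine serum. Vehicle cells received DMSO, and treated cells received 100 nM GW7647, a potent synthetic activator of PPARα, for 6 h or for 24 h. Each of the 3 groups had 3 arrays, and 1 vehicle group served both times. The sources used here give no duration for it, so that exposure and time in culture cannot be told apart. Every value is a log2 RMA signal (background-corrected and normalized, on an Affymetrix expression array), and p-values measure only the spread between these arrays, which may be technical. HepG2 is 1 line, and a higher signal from a culture does not say whether all cells or a share of them changed.

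PPARα is a nuclear receptor for fatty acids that acts as a dimer with RXR and switches on genes for burning and handling fat in liver. Perilipins control which lipases reach the droplet surface: PLIN2 is the main coat protein of liver cell droplets and is degraded when it is not bound to fat, whereas PLIN1 and PLIN4 are mostly proteins of fat cells. PLIN3 is held in the cytosol and moves to newly forming droplets, and PLIN5 brings droplets close to mitochondria in tissues that burn fat. PNPLA2, also known as ATGL, takes the first fatty acid off a triglyceride, and G0S2 and HILPDA both bind it and hold it back.

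Promoter sequence is shown for PLIN2 and PLIN3, the perilipins called higher than vehicle, PLIN3 only at 24 h and narrowly (limma adjusted p = 0.0395). It is also shown for PNPLA2, which did not pass the test in any comparison. Of the 9 members with a promoter window, only PNPLA2 held the hexamer that nuclear receptors bind. Each line gives the 250 bases before the gene's start, from RefSeq on GRCh38.p14, written in the direction of transcription. Capitals mark every match on either strand to the receptor hexamer AGGTCA or to ACGTG and GCGTG, the core letters of elements bound by hypoxia-inducible factors. The windows are chr9:19127493-19127742 on the minus strand for PLIN2, chr19:4867668-4867917 on the minus strand for PLIN3 and chr11:818664-818913 on the plus strand for PNPLA2.
PLIN2: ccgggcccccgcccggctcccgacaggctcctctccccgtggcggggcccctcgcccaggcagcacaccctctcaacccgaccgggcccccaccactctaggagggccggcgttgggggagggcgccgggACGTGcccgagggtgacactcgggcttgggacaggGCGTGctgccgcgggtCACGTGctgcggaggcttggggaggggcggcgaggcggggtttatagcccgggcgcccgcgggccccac
PLIN3: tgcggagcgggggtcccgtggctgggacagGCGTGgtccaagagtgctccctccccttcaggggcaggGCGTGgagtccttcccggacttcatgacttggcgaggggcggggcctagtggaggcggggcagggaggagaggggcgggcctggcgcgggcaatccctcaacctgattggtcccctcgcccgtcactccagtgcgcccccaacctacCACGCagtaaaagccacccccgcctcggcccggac
PNPLA2: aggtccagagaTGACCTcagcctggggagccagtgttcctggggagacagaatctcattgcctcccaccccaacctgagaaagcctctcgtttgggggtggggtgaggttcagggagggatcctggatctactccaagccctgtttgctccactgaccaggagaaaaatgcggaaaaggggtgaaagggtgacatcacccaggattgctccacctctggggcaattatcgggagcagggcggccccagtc

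The motifs were searched over the full 300 bases of each window, 50 of them after the start. The table held 11 windows for 9 of the 10 genes, with 2 each for CIDEB and CIDEC. ACGTG was found in PLIN2 alone, where 1 match starts 120 bases before the gene and the palindrome CACGTG, which holds ACGTG on both strands, starts 69 bases before it. Of all 35116 promoter windows, 21.4% held ACGTG and 7.26% held CACGTG, its palindromic form. Matches to GCGTG were found in 5 of the 9 genes (PLIN2, PLIN3, PLIN5, CIDEB and G0S2) and in 36.5% of all windows. The hexamer AGGTCA was found in PNPLA2, 239 bases before the start, and in 13.8% of all windows. Its direct repeat with 1 base between, allowing any base at the fourth letter of each copy, was found in 0 of the 11 windows and in 0.310% of all windows, which says only that these letters are not in these windows. PLIN4 and PLIN5 are neighbours on chromosome 19 by the RefSeq gene order, PLIN3 lies on the same chromosome, and the gene next to PLIN1 on chromosome 15 is PEX11A.

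PLIN2 had the largest change of the 10 genes at both times. Its signal was 11.55, 11.57 and 11.54 on the vehicle arrays, 12.54, 12.51 and 12.72 after 6 h, and 13.09, 13.02 and 13.01 after 24 h. The 3 groups did not overlap: every 6 h array lay above every vehicle array and below every 24 h array. Group means were 11.55 ± 0.014, 12.59 ± 0.11 and 13.04 ± 0.045 (SD, n = 3 arrays each). On the log2 scale the change was 1.04 ± 0.064 (SE) at 6 h, by limma with Benjamini-Hochberg adjustment over all genes (adjusted p = 8.57e-06), and 1.49 ± 0.064 at 24 h (adjusted p = 2.59e-07). Among the 19775 genes PLIN2 stood at place 19 from the highest change at 6 h and at place 12 at 24 h. From 6 h to 24 h the signal rose 1.37-fold (95% confidence interval 1.24 to 1.51, adjusted p = 9.05e-04 by limma). PLIN2 passed in every comparison with any 1 of the 9 arrays left out.

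A second PLIN2 probe set did not show this. It read 5.10, 5.03 and 5.46 in vehicle, 5.14, 5.14 and 5.07 at 6 h, and 5.14, 5.14 and 5.28 at 24 h, so the groups overlapped. Its log2 changes were -0.081 ± 0.10 and -0.010 ± 0.10 (SE). It is dim: its mean of 5.16 lay under 5.91, the 95th percentile of the means of 107 probe sets for olfactory receptors, which hepatoma cells have little reason to express. This is a rough gauge, since RMA values carry no detection call and probe sets differ in brightness. With both PLIN2 probe sets averaged the log2 change was 0.48 at 6 h and 0.74 at 24 h, and both still passed (adjusted p = 0.00173 and 2.29e-05 by limma).

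**Figure D1:**
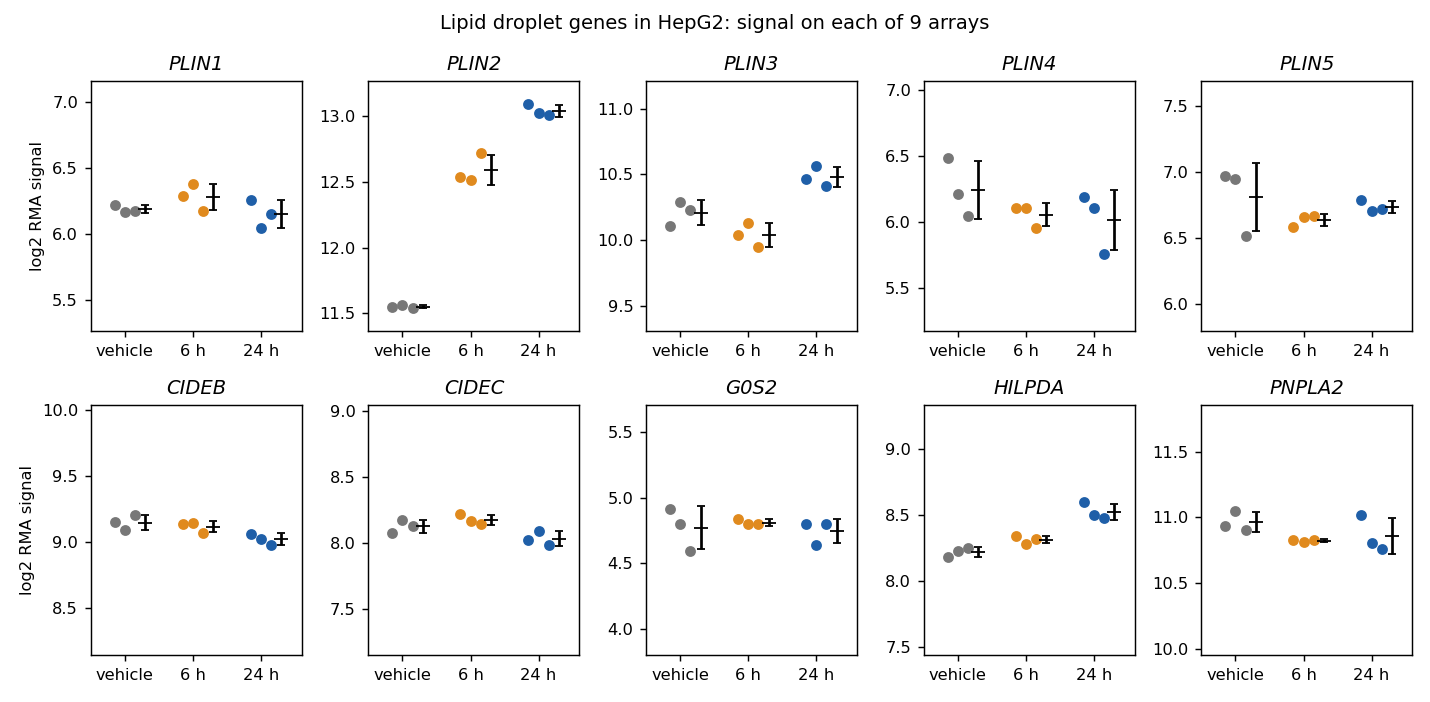
Log2 RMA signal of each of the 10 genes (1 panel per gene, y axis spanning the same number of log2 units in every panel) on the 3 vehicle, 3 GW7647 6 h and 3 GW7647 24 h arrays, with 1 point per array and the group mean ± SD in black. PLIN2 climbs from 11.55 to 12.59 and 13.04, PLIN3 and HILPDA stand highest at 24 h, and the other 7 genes show groups that lie close together.

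PLIN3 was lower at 6 h than at 24 h, and its rise over vehicle at 24 h was small. The arrays read 10.11, 10.29 and 10.23 in vehicle, 10.04, 10.13 and 9.95 at 6 h, and 10.46, 10.57 and 10.41 at 24 h. All 24 h arrays lay above all others, while the 6 h and vehicle arrays overlapped. At 6 h the log2 change was -0.17 ± 0.071 (SE), which did not pass (limma adjusted p = 0.267), with a fold interval of 0.799 to 0.992. At 24 h it was 0.27 ± 0.071, or 1.21-fold (95% confidence interval 1.08 to 1.35), and passed narrowly (adjusted p = 0.0395). That call was lost without vehicle replicate 1 or 3, 6 h replicate 1 or any 1 of the 24 h arrays (adjusted p up to 0.135), when the fit held the vehicle and 24 h arrays alone (0.0793), and when every probe set was tested on its own (0.0565). The step from 6 h to 24 h was larger, 0.44 ± 0.071 (adjusted p = 0.00204), and passed with any 1 array left out. The only PLIN3 probe set ends in _s_at, the mark of probes that can be shared between transcripts.

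PLIN1, PLIN4 and PLIN5 did not pass in any comparison. The mean signals of PLIN1 (6.21) and PLIN4 (6.11) over all arrays lay just above the olfactory receptor gauge of 5.91. PLIN1 ranged from 6.16 to 6.22 in vehicle, 6.18 to 6.38 at 6 h and 6.05 to 6.26 at 24 h, so its groups overlapped. PLIN4 spread more, from 6.04 to 6.48 in vehicle, 5.96 to 6.11 at 6 h and 5.76 to 6.19 at 24 h. Its log2 change at 24 h was -0.23 ± 0.12 (SE, limma adjusted p = 0.331), and its interval reached a fold of 0.707, the widest downward bound among the genes that did not pass. That change was -0.098 without 24 h replicate 3 and -0.11 without vehicle replicate 1. For PLIN5 the probe set used read 6.97, 6.95 and 6.52 in vehicle, 6.59, 6.66 and 6.67 at 6 h, and 6.79, 6.70 and 6.72 at 24 h. Vehicle replicate 3 stood apart from the other two vehicle arrays, and without it the PLIN5 change at 6 h was -0.32 and passed (adjusted p = 0.0246), against -0.18 with all arrays (adjusted p = 0.450).

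PLIN5 had 6 probe sets, and they did not point one way. At 6 h 1 of the 6 had a change above 0 and 5 below, from -0.20 to 0.11, and at 24 h 2 were above and 4 below, from -0.24 to 0.11. None of the 6 passed at either time by limma over all probe sets, although 1 at 6 h and 2 at 24 h had an unadjusted p under 0.05, each with a change below 0. Of the 6, 3 lay within the olfactory receptor gauge. Without probe sets that can share probes, PLIN5 is read by another of the 6, and its changes turned from -0.18 and -0.075 to 0.11 and 0.096.

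HILPDA, a small droplet protein induced by low oxygen and by fatty acids, rose late. The array values were 8.18, 8.22 and 8.25 in vehicle, 8.34, 8.28 and 8.32 at 6 h, and 8.60, 8.50 and 8.48 at 24 h. Again the 3 groups did not overlap, but the 6 h arrays lay only just above vehicle. The log2 change at 6 h was 0.094 ± 0.055 (SE) and did not pass (limma adjusted p = 0.444). At 24 h HILPDA was 1.24-fold (95% confidence interval 1.14 to 1.34) above vehicle, a log2 change of 0.31 ± 0.055 (adjusted p = 0.00619), and this passed with any 1 array left out. The step from 6 h to 24 h was 0.21 ± 0.055 (adjusted p = 0.0257). The call was lost when any 1 of the 6 h arrays, or replicate 1 or 2 of 24 h, was left out (adjusted p up to 0.101) and after quantile normalization (0.0839).

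The second HILPDA probe set gave a like picture. It read 8.13, 8.12 and 8.26 in vehicle, 8.17, 8.08 and 8.29 at 6 h, and 8.50, 8.58 and 8.42 at 24 h, so the 24 h arrays lay above all others and the 6 h and vehicle arrays overlapped. In the fit over all probe sets its log2 change was 0.33 ± 0.075 at 24 h (SE, adjusted p = 0.0251 by limma) and 0.011 ± 0.075 at 6 h. HILPDA was the 1 gene among the 4 with several probe sets for which every probe set rose at 24 h.

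The lipase that HILPDA and G0S2 restrain did not pass at either time. PNPLA2 read 10.94, 11.05 and 10.91 in vehicle, 10.83, 10.81 and 10.83 at 6 h, and 11.02, 10.81 and 10.76 at 24 h. The 6 h arrays lay below all vehicle arrays and the 24 h arrays spanned both. Its log2 change was -0.14 ± 0.072 (SE) at 6 h (limma adjusted p = 0.368) and -0.10 ± 0.072 at 24 h (0.456), with fold intervals of 0.812 to 1.01 and 0.833 to 1.04. The other PNPLA2 probe set had changes of -0.12 and 0.13, so the 2 probe sets differed in direction at 24 h. G0S2 was within the olfactory receptor gauge, with a mean of 4.78, and its 9 arrays held only 6 distinct values. The second PLIN2 probe set and a PLIN5 probe set not used for the gene also held 6, and that of PLIN4 held 7. The G0S2 log2 changes were 0.040 ± 0.081 and -0.026 ± 0.081 (SE), and neither passed.

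CIDEB, which helps hepatocytes load fat onto secreted lipoproteins, and CIDEC, which fuses droplets into larger ones, did not pass in any comparison. CIDEB read 9.15, 9.09 and 9.21 in vehicle, 9.14, 9.15 and 9.07 at 6 h, and 9.06, 9.03 and 8.98 at 24 h. All 24 h arrays lay below all others, yet the log2 change of -0.12 ± 0.056 (SE) did not pass (limma adjusted p = 0.230), with a fold interval of 0.842 to 0.999. CIDEC ranged from 8.08 to 8.18 in vehicle, 8.14 to 8.22 at 6 h and 7.98 to 8.09 at 24 h. Its 24 h arrays lay below its 6 h arrays, a change of -0.14 ± 0.056 (adjusted p = 0.127), which passed among the genes above the median signal (0.0447) and after quantile normalization (-0.19, 0.0331).

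**Figure D2:**
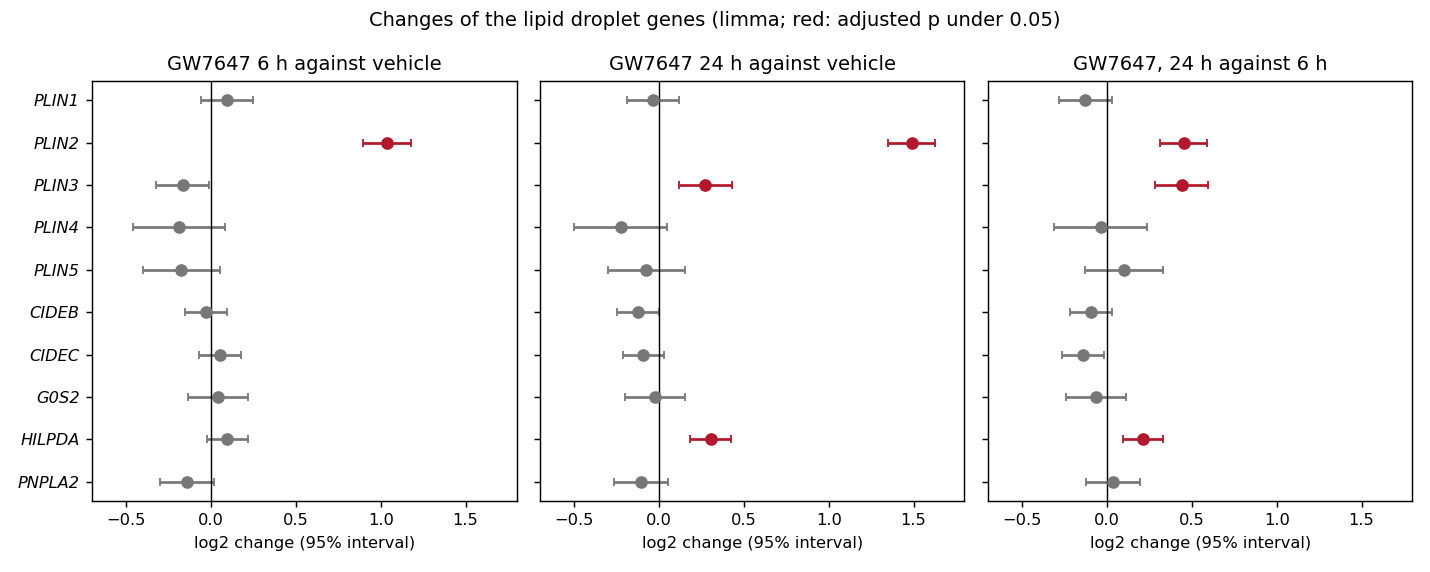
Log2 change of each gene (points) with its 95% confidence interval (bars) from limma, in 1 panel for each of the 3 pairs of groups, with an adjusted p under 0.05 in red. PLIN2 is red in all 3 panels, at 1.04, 1.49 and 0.45, PLIN3 and HILPDA are red in the panels with 24 h, and the intervals of the other genes reach no further than folds of 0.707 and 1.26.

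By limma, 1 of the 10 genes rose and 0 fell at 6 h, where 3.54% of all genes were called, 1.64% as higher and 1.91% as lower. At an unadjusted p under 0.05 there were 2, PLIN2 upward and PLIN3 downward, beside 16.3% of all genes. The 9 that did not pass had log2 changes from -0.19 to 0.094, and their intervals ran from a fold of 0.726 for PLIN4 to 1.19 for PLIN1. At 24 h 3 members rose and 0 fell by limma, against 8.17% of all genes called, 5.38% higher and 2.8% lower. With the unadjusted p there were 4, CIDEB being the one that was lower, beside 21.2% of all genes. All 7 that did not pass had changes below 0, from -0.23 to -0.026, with intervals from 0.707 for PLIN4 to 1.11 for PLIN5. Of these, PLIN4, CIDEB and CIDEC kept that sign under every alternative that could be run on them, and the other 4 crossed 0 under at least 1. The median log2 change of the 10 was 0.0049 at 6 h and -0.056 at 24 h, beside 0.0039 and 0.0034 for all genes. From 6 h to 24 h 3 members rose and 0 fell by limma, where 13.8% of all genes were called, 9.23% higher and 4.57% lower. With the unadjusted p there were 4, CIDEC being the one that was lower, beside 25.9% of all genes.

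Arrays of the compared groups lay entirely apart for 3 of the 10 genes at 6 h, 2 above and 1 below, where this held for 20.8% of all genes (10.5% above and 10.3% below). At 24 h 3 lay above and 1 below, beside 23% of all genes (14% and 8.95%). For 24 h against 6 h 4 lay above and 2 below, beside 33% (19.2% and 13.8%). Tested as 18 single probe sets, 1 rose and 0 fell at 6 h by limma, where 2.03% of all probe sets were called (0.905% higher, 1.13% lower). At 24 h 3 rose and 0 fell, beside 5.66% (3.37% and 2.3%), and between the times 4 rose and 0 fell, beside 9.71% (6.2% and 3.51%). At an unadjusted p under 0.05, 1 member probe set was higher and 2 lower at 6 h, beside 14.4% of all probe sets. The numbers were 4 and 2 at 24 h, beside 18.6%, and 5 and 1 between the times, beside 22.1%.

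**Figure D3:**
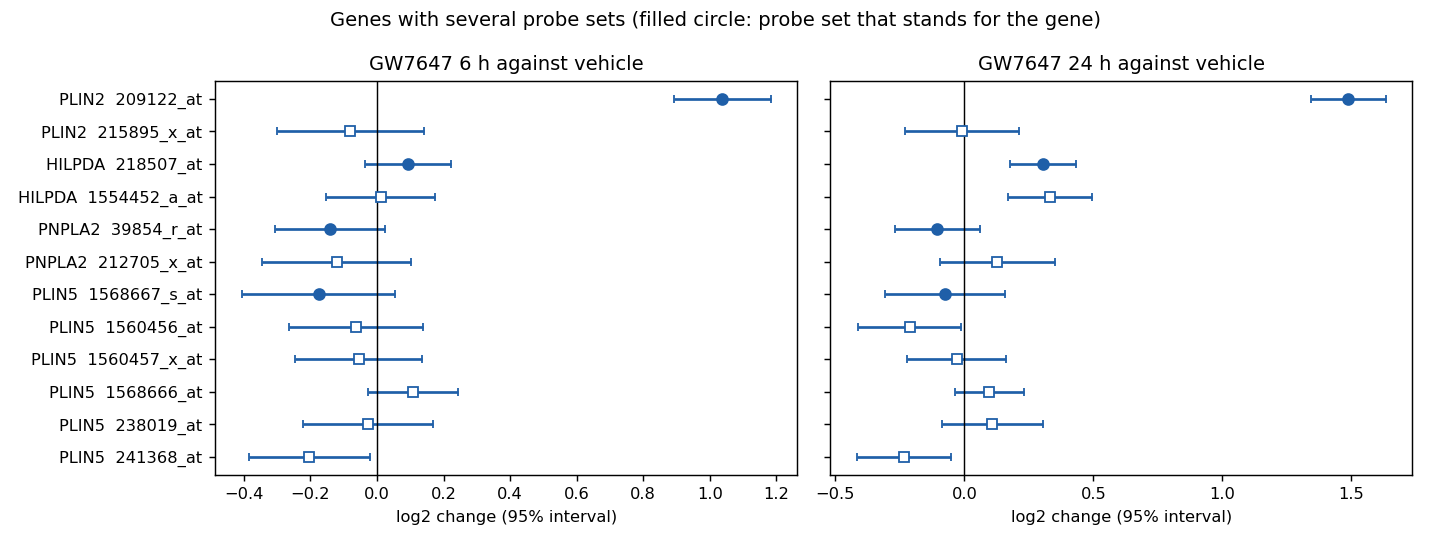
Log2 change with its 95% confidence interval for every probe set of the 4 genes that have several, at 6 h (left) and 24 h (right) against vehicle, with a filled circle for the probe set that stands for the gene and open squares for the others. Both HILPDA probe sets lie at 0.31 and 0.33 at 24 h, whereas the second PLIN2 probe set stays near 0 and the 6 PLIN5 probe sets scatter around it.

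The profile nearest to that of PLIN2 over the 9 arrays, each gene taken relative to its vehicle mean, was TMEM200A, with a root mean square difference of 0.162 log2 units among 19765 other genes. Next were DDIT4, a brake on growth signalling, at 0.208, the cystine transporter SLC7A11 at 0.264, the glucose transporter SLC2A3 at 0.294 and the transcription factor BHLHE40 at 0.330. TMEM200A had log2 changes of 0.82 at 6 h and 1.56 at 24 h, and DDIT4 of 1.29 and 1.73. Nearest to PLIN3 were the reticulum protein ERP29 at 0.0504 and MRPL23 of the mitochondrial ribosome at 0.0521, and nearest to HILPDA were PDLIM1 at 0.0380 and ETHE1 at 0.0386. The probe sets of DDIT4, SLC2A3, BHLHE40, MRPL23 and PDLIM1 can share probes with other transcripts, and on a probe set without them MRPL23 went from 0.27 to 0.15 at 24 h and did not pass (adjusted p = 0.444 by limma). A smaller difference is easier to reach for a gene that moved little, so the distances of the 3 members are not on a par.

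Of 45 other genes of droplet growth, breakdown and surface, 39 were measured. At 6 h 3 rose and 0 fell by limma, with 5 higher and 9 lower at an unadjusted p under 0.05. The 3 were LPIN1 (0.35 ± 0.062, SE), which makes the diglyceride used for storage, the sterol enzyme NSDHL (0.33 ± 0.068) and AGPAT2 (0.25 ± 0.059), an earlier step of triglyceride synthesis. Of 18 alternatives, the AGPAT2 call was lost in 13 (limma adjusted p up to 0.151), the NSDHL call in 7 and the LPIN1 call in 3. Leaving out 6 h replicate 1 or 3 took the 3 rises to 0, and leaving out 6 h replicate 2, or vehicle replicate 1 or 3, took them to 1. The median change of the list was -0.054, beside 0.0039 for all genes. The counts of this and the later lists stand beside 3.54% of all genes called at 6 h, 8.17% at 24 h and 13.8% between the times. At an unadjusted p under 0.05 the shares of all genes were 16.3%, 21.2% and 25.9%.

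By limma 3 of the 39 rose at 24 h and 2 fell, and 34 did not pass. PNPLA3, a droplet protein whose common variant goes with fatty liver, rose by 0.50 ± 0.077 (SE, adjusted p = 0.00277) and AGPAT2 by 0.35 ± 0.059 (0.00485). LPIN2 was at the threshold (0.29 ± 0.081, adjusted p = 0.0496) and lost its call when any 1 vehicle or 24 h array, or replicate 1 of 6 h, was left out (up to 0.141). The lysosomal lipase LIPA fell (-0.34 ± 0.058, adjusted p = 0.00504), as did VPS13A (-0.41 ± 0.10), a lipid carrier between membranes. VPS13A passed with all arrays or without vehicle replicate 2, and in no other case of 1 array left out (up to 0.127). With its probe sets averaged LIPA had -0.19 and did not pass (adjusted p = 0.0503). The 2 falls became 1 without vehicle replicate 3 or any 1 treated array. The coactivator of PNPLA2, ABHD5, had changes of 0.047 ± 0.069 and -0.063 ± 0.069, and the enzymes of the last step of triglyceride synthesis had 24 h changes of -0.014 ± 0.064 for DGAT1 and 0.049 ± 0.070 for DGAT2; none of these passed, and the 3 were singled out after their values were seen.

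By limma 3 of the 39 rose from 6 h to 24 h and 4 fell, and 32 did not pass. LPIN2 (0.53 ± 0.081, SE), PNPLA3 (0.41 ± 0.077) and DDHD2 (0.30 ± 0.060) rose, the last named after its values were seen. LPIN1 (-0.44 ± 0.062), RAB18 (-0.32 ± 0.053), LIPA (-0.29 ± 0.058) and NSDHL (-0.24 ± 0.068) fell. RAB18 had -0.027 on a probe set without shared probes (adjusted p = 0.915), LIPA had -0.17 with its probe sets averaged (0.0614), and the NSDHL call was lost whichever treated array was left out (up to 0.115). The 3 rises became 5 without 24 h replicate 3.

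Of 25 other measured PPARα target genes, by limma 3 rose and 0 fell at 6 h, with 6 higher and 1 lower at an unadjusted p under 0.05. The numbers at 24 h were 9 and 1, with 15 that did not pass, where 8.17% of all genes were called. CPT1A (0.77 ± 0.088, SE), ETFDH (0.65 ± 0.066) and CREB3L3 (0.59 ± 0.13) rose at 24 h and VNN1 fell (-0.81 ± 0.067). VNN1 was one of the 3 that rose at 6 h (0.30 ± 0.067, limma adjusted p = 0.0331). That call was lost when any 1 vehicle array, replicate 1 or 3 of 6 h, or replicate 3 of 24 h was left out (adjusted p up to 0.136). It was also lost with the VNN1 probe sets averaged, where the log2 change was 0.22. The CREB3L3 call was lost when vehicle replicate 1 or 3, or replicate 2 or 3 of 24 h, was left out (adjusted p up to 0.0890), and the 3 rises at 6 h became 1 without 6 h replicate 1. None of the 25 had a rise as large as that of PLIN2, since the highest changes were 0.33 at 6 h and 0.77 at 24 h. Of 29 hypoxia response genes measured beside HILPDA, by limma 21 rose and 0 fell at 24 h, where 8.17% of all genes were called. At an unadjusted p under 0.05, 23 were higher and 0 lower, beside 21.2% of all genes. BNIP3L rose by 1.07 ± 0.19 at 24 h. DDIT4, SLC2A3 and BHLHE40, which are among the profiles nearest to PLIN2, are on this list. Nearness favours genes that changed about as much as PLIN2, and the list was written with earlier results of these data known. This overlap is therefore only described, and its cause was not tested. DDIT4 rose more than PLIN2 at both times (log2 changes of 1.29 and 1.73). The 21 became 11 without 24 h replicate 1 or 2, and 10 without probe sets that can share probes. At 6 h 4 of the 29 rose and 2 fell, and the 2 falls became 0 without any 1 of the vehicle arrays or 6 h replicate 1 or 2, 1 without 24 h replicate 3 and 4 without 6 h replicate 3.

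**Figure D4:**
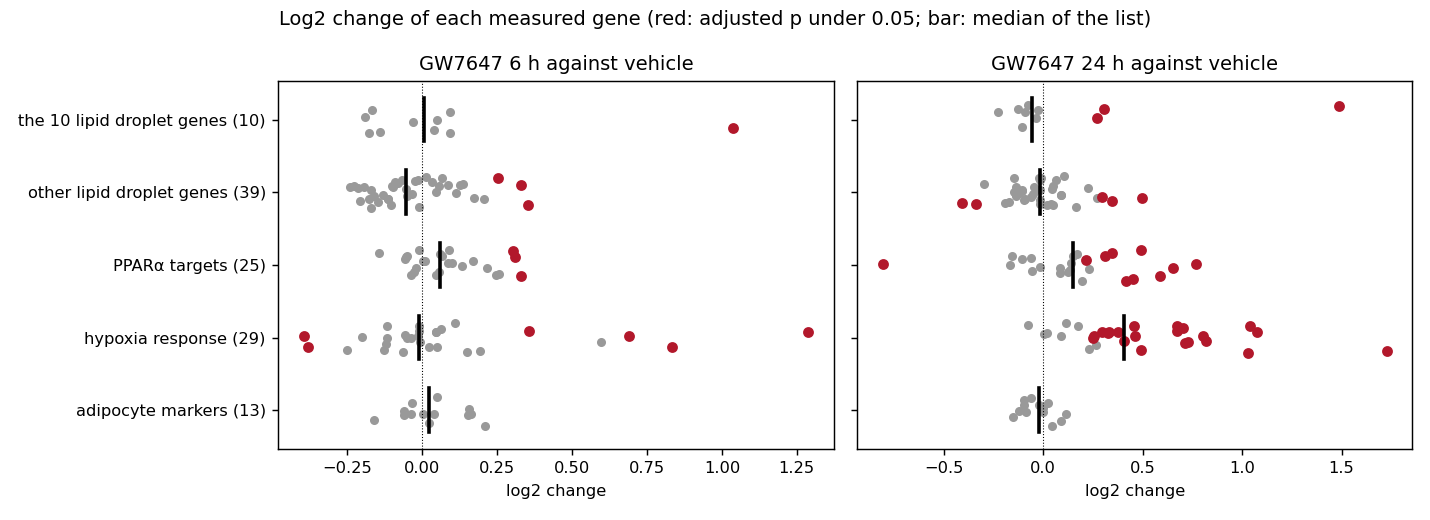
Log2 change of every measured gene (points, spread vertically only for legibility) at 6 h and 24 h against vehicle in the 10 lipid droplet genes and 4 other lists, with an adjusted p under 0.05 in red and the median of each list as a black bar. PLIN2 stands apart from the other lipid droplet genes at both times, and at 24 h the hypoxia list has a median of 0.41 while the adipocyte markers stay around 0.

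Since PLIN1, PLIN4 and CIDEC are known from fat cells, adipocyte markers were read beside them. Of 15 such markers 13 were measured, and 9 of these lay within the olfactory receptor gauge, among them ADIPOQ, LEP, FABP4 and LPL, whereas CFD, GPD1, LIPE and PPARG lay above it. LIPE and CIDEA are also on the list of other droplet genes. By limma 0 rose and 0 fell against vehicle at either time, with 1 higher and 1 lower at 6 h and 0 and 1 at 24 h at an unadjusted p under 0.05. Their mean log2 signal per array ran from 5.69 to 5.78 in vehicle, 5.74 to 5.78 at 6 h and 5.69 to 5.70 at 24 h. All 18 measured hepatocyte markers lay above the gauge. Their mean was 12.48 to 12.54 in vehicle, 12.42 to 12.43 at 6 h and 12.39 to 12.41 at 24 h, so vehicle arrays were highest, and the part of this in the changes above was not tested. At 6 h 2 of them fell (FGA and FOXA2), a count that went to 0 when 6 h replicate 2 was left out and to 1 when another 6 h array, or vehicle replicate 1 or 2, was. At 24 h 4 fell (TTR, FGA, FGB and FGG) and 1 rose (FOXA2), and the 1 became 0 without any 1 of the vehicle arrays or 24 h replicate 1 or 2. Of 20 measured markers of other liver cells, 12 lay within the gauge, PTPRC, CD163 and LRAT among them. The 8 above it were ACTA2, CD14, COL1A1, DES, HBB, KRT7, MARCO and PECAM1. By limma 1 of the 20 fell at 6 h (CD14) and 1 rose at 24 h (ACTA2).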

How the data were processed

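The deposited values were log2 RMA signals, 1 column per array for 9 arrays, and were used as they were. Per the submitters' processing notes the authors ran RMA, named there without a version, software or chip definition. The values ran from 2.66 to 15.0, with array medians of 5.61 to 5.68. Across genes, r was 0.997 to 0.999 for the 9 pairs of arrays from one group and 0.995 to 0.998 for the 27 other pairs. Depth does not apply to arrays, and their number limits the precision.

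Of 54675 probe sets, 62 controls, 1801 with several symbols and 11721 without a symbol were left out. Changes were fitted with limma 3.58.1 (R 4.3.3) over all 9 arrays, with eBayes at default settings and no filter on signal, and were adjusted by Benjamini-Hochberg over 19775 genes, or over 41091 probe sets where each was tested alone. A gene was called at an adjusted p under 0.05. With 3 arrays a side, the smallest p of an exact permutation test is 0.1. Data with independent noise were simulated for the 6 h comparison with 19775 genes. Of genes changed by 0.5 log2 units 42 of 50 were recovered, and of those changed by 1, 50 of 50. Among unchanged genes 12 were called, and changes under 0.5 were not simulated.

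The members and lists were chosen with earlier results of these data known. Named genes were the 10 members, up to 8 passing genes of the other droplet list and 4 each of the PPARα target and hypoxia lists by size of change, and the nearest profiles (5 for PLIN2, 2 for each other member that passed against vehicle). The labels do not say that equal replicate numbers belong together. Deviations from group means correlated at -0.20 to 0.086 for equally numbered arrays of different groups and at -0.24 to 0.25 for the others. Whether equally numbered arrays belong together is therefore not known. The alternatives tried were a replicate block, a fit of the 2 compared groups, an intensity trend and robust prior, a filter at the median signal, probe sets averaged, no probe sets ending in _x_at or _s_at, quantile normalization, median centring, a change of at least 1.5-fold, every non-control probe set, and each array left out in turn. The effect of these on the counts of the other lists was examined after seeing the data. Promoters are from RefSeq.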

Additional observations from a re-analysis of the deposited data

Results flagged for a closer look

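Between the 24 h and 6 h arrays 3 members differed in the same limma fit, where 13.8% of all genes were called. The vehicle group is shared and cancels out of this comparison, so exposure and time in culture cannot be told apart. The 24 h mean minus the 6 h mean was 0.45 log2 units for PLIN2 (limma adjusted p = 9.05e-04). It was 0.44 for PLIN3 (0.00204) and 0.21 for HILPDA (0.0257). The HILPDA call was lost in 8 of 18 alternatives (adjusted p up to 0.101), against 1 of 18 for PLIN2 and 1 of 17 for PLIN3. For PLIN2 both changes against vehicle were rises, while for PLIN3 the change at 6 h was below 0 without passing.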

How the results depend on the processing

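With at least a 1.5-fold change asked for, the 3 called members at 24 h became 1 and the 3 between 6 h and 24 h became 0. With 1 array left out, the called members ranged from 1 to 2 at 6 h, 2 to 3 at 24 h and 2 to 3 between both, and the called probe sets from 1 to 2, 2 to 4 and 2 to 4. The second call at 6 h was PLIN5 without vehicle replicate 3, and the 4 probe sets became 2 without 6 h replicate 1 or 2 or 24 h replicate 1 or 2. The replicate number as a block, which is not a known pairing, left 1 and 3 called members at 6 h and 24 h and gave 2 between them, where HILPDA did not pass (adjusted p = 0.0597). Signs turned only in changes that passed neither way. These were PLIN5 without shared probes (0.11 at 6 h, 0.096 at 24 h, -0.013 between), CIDEB after quantile normalization (0.0058 at 6 h) and PNPLA2 with probe sets averaged (0.012 at 24 h). With 1 array left out they were PLIN1 at 24 h (-0.090 to 0.017), PLIN4 between the times (-0.12 to 0.091), PLIN5 at 24 h (-0.22 to 0.0046), G0S2 at 6 h (-0.048 to 0.11) and 24 h (-0.11 to 0.047), and PNPLA2 between the times (-0.041 to 0.086). The cause was not tested.

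Over all genes, the 701 calls at 6 h became 427 with the block, 454 with the compared groups alone, 1104 with the trend and robust prior, 1206 above the median signal, 454 without shared probes and 78 at 1.5-fold. The 1616 at 24 h became 921 with the compared groups alone and 173 at 1.5-fold, and the 2729 between the times became 1774 without shared probes and 267 at 1.5-fold. With 1 array left out they ranged from 261 to 637, 1005 to 1664 and 1519 to 3082. At 6 h the 324 higher and 377 lower calls became 419 and 328 with quantile-normalized arrays and 255 and 416 with median-centred ones. Higher and lower calls for 24 h against 6 h were 1826 and 903, but 1457 and 1207 with quantile-normalized arrays and 2175 and 653 with arrays centred on their medians. PLIN1, PLIN4, PLIN5 and G0S2 lay under the median signal, and PLIN3, CIDEB and G0S2 have only probe sets that can share probes, so they could not be fitted there. Scanner files were not used here, so background correction and slide were not varied.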
